A study of Mus musculus with 4 samples.

Results

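Gene expression in the prostate of TRAMP mice was compared between 1 array of mice given a tocopherol mixture and 1 array of mice given its olive oil vehicle. These are 2 of the 4 arrays of the study. The members of the comparison are the genes whose probe was marked as well above background on both TRAMP arrays, which held for 17428 of the 28090 gene names on the array. A level is the log2 of the scanner's processed signal minus the log2 of the array's 75th percentile, so that 0 is the 75th percentile of its array. A difference is the level after the mixture minus the level after oil, and a difference of 1 is 2-fold.

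Both groups were male TRAMP mice of 8 weeks, 3 per group, kept on the AIN-76A diet and left without food overnight before gavage. One group received olive oil and the other 600 mg/kg of γ-TmT, a mixture of tocopherols rich in gamma-tocopherol, and prostates were frozen 12 hours after the dose. The same pair of treatments in C57BL/6 males of that age gave the other 2 arrays. TRAMP mice carry the early genes of the SV40 virus under the rat probasin promoter, which drives them in prostate epithelium. The labels do not say which strain background the TRAMP mice had, which lobes were taken, or whether the 3 mice were pooled on an array. With n = 1 array per group there is no replicate check and no p-value, and a ± value is the scanner software's error of the spots alone.

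Tocopherols are the vitamin E compounds that stop chain reactions of lipid peroxidation in membranes, and gamma-tocopherol also traps reactive nitrogen species. Dietary mixtures of this kind have been studied in TRAMP mice for their bearing on Nrf2, the factor that induces antioxidant enzymes, and on DNA methylation. The prostate of these mice contains secretory luminal cells, basal cells, a fibromuscular stroma, vessels, nerve and adjoining fat, and its transgene drives luminal cells into the cell cycle. In such a bulk sample, fewer cells of a type and less RNA per cell cannot be told apart.

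The labelled tissue was borne out by its defining transcripts. On the TRAMP oil and TRAMP TmT arrays the level of Sbpl was 9.02 and 9.95, that of the secreted inhibitor Spink1 8.32 and 9.17, that of the androgen-dependent secretory protein Pbsn (probasin) 4.11 and 5.06, and that of the luminal keratin Krt18 6.22 and 6.53. Seminal vesicle transcripts were as high, with Svs5 at 9.75 and 10.22, and Svs4 at 8.71 and 9.04, so RNA with seminal vesicle products was present on both arrays. Skeletal muscle transcripts were also measured, 25 of 29 listed.

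The 4 arrays lay on 1 slide. Between 63.9% and 74.1% of spots were well above background, the lowest share on the TRAMP TmT array, whose 75th percentile of signal was 71.3 against 139 on the TRAMP oil array. The scanner software fitted a smooth spatial factor to each array. On the TRAMP oil array this factor ran from 0.257 to 1.44 and lay outside 0.8 to 1.25 for 19.97% of spots, against 6.38% on the TRAMP TmT array. The software divided the signal by it on all arrays but the TRAMP TmT array. Genes whose spot had a factor below 0.8 on the TRAMP oil array had differences with an SD of 1.03 across 2583 genes, against 0.627 across the 14373 genes with a factor between 0.8 and 1.25. The latter are called the even zone here. The part of this factor in single differences was not tested, and its value is given beside many of the genes where it lay outside 0.8 to 1.25.

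**Figure D1:**
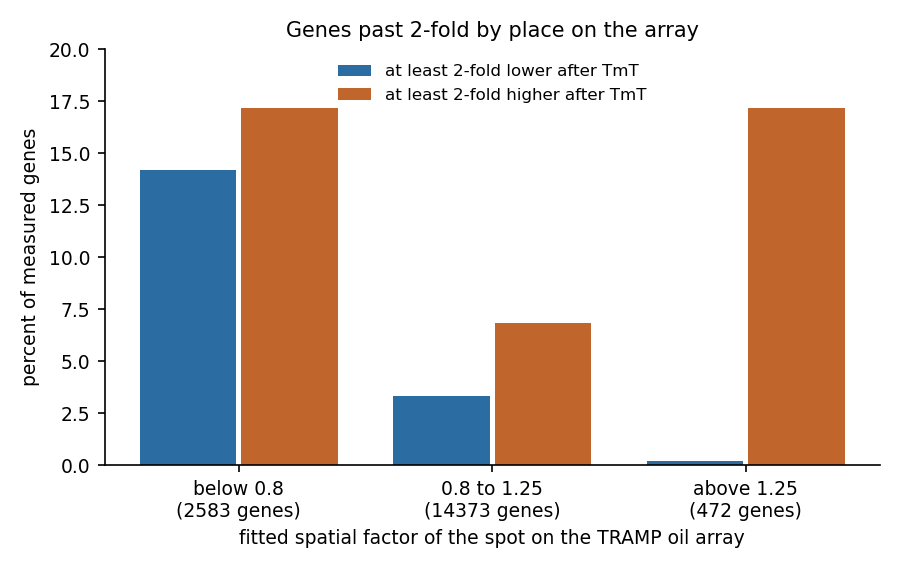
Percent of measured genes at least 2-fold lower or higher after TmT in TRAMP prostate, by the scanner software's fitted spatial factor of the gene's spot on the TRAMP oil array (bars start at 0; 1 array per group). Below a factor of 0.8 the shares were 14.2% lower and 17.2% higher, against 3.33% and 6.85% in the even zone.

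Genes at least 2-fold apart are here called lower or higher after TmT. Of those measured, 847 (4.86%) were called lower and 1511 (8.67%) higher, 13.5% in all. The median difference over all genes was 0.10. Higher genes made up 64.1% of those past 2-fold, and this split was 51.4% with the arrays centred on the median, 51.5% after a loess correction and 83.4% with normexp background correction and quantile normalization together, so the excess of higher genes moved with the processing. Further genes were well above background on 1 of the arrays only and give bounds. Of 360 such genes on the TRAMP TmT array, 309 were higher by 2-fold or more. Of 2037 on the TRAMP oil array, 118 were lower by 2-fold or more. The lowest level well above background was -3.53 on the TRAMP TmT array and -4.86 on the TRAMP oil array. A lower gene thus needed a higher level to reach a 2-fold bound, and the counts of either direction are not on equal terms. In the same comparison in C57BL/6 mice, 492 of 18719 genes were called lower (2.63%) and 590 higher (3.15%), 5.78% in all.

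In most of the genes past 2-fold each of the TRAMP arrays stood at an edge of the 4. Choosing genes by the difference between these arrays favours such positions, so the counts do not single out either array. Of the 847 lower genes, 608 had their highest level on the TRAMP oil array, and of the 1511 higher genes, 1190 had their lowest level there. The TRAMP TmT array had the lowest of the 4 levels in 565 of the lower genes and the highest in 1022 of the higher genes. Of all 17428 genes, which were not chosen by their difference, 3891 were highest and 5565 lowest on the TRAMP oil array. On the TRAMP TmT array 5394 were highest and 4224 lowest. A value on the oil array that departs from the line's usual level and an effect of TmT cannot be told apart with 1 array per group.

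Across 50 gene lists of cell types and pathways, 5 had a median at or below -0.4, from -1.66 to -0.45, and 13 had one at or above 0.4, from 0.50 to 1.04. The low lists were those of white adipocytes, PPAR targets and fatty acid oxidation, DNA replication, mitosis, and fatty acid synthesis. The high lists were those of fibroblasts, smooth muscle, endothelium, Schwann cells, neuroendocrine cells, basal epithelium, urothelium, the epididymis and vas deferens, B cells, neutrophils and mast cells, chemokines, matrix metalloproteases and prostaglandin synthesis. The other 32 lists lay between -0.40 and 0.38. Counts of list members called are to be set against 4.86% of all genes lower and 8.67% higher. The share called higher varied with level. Among the 4357 genes with the lowest mean level, 12.3% were called higher and 3.97% lower, with a median of 0.263. Among the 4357 with the highest mean level, the shares were 6.38% and 4.36%, with a median of 0.03. The shares of all genes are thus a loose reference for lists with many dim members, and level was not matched in these counts.

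**Figure D2:**
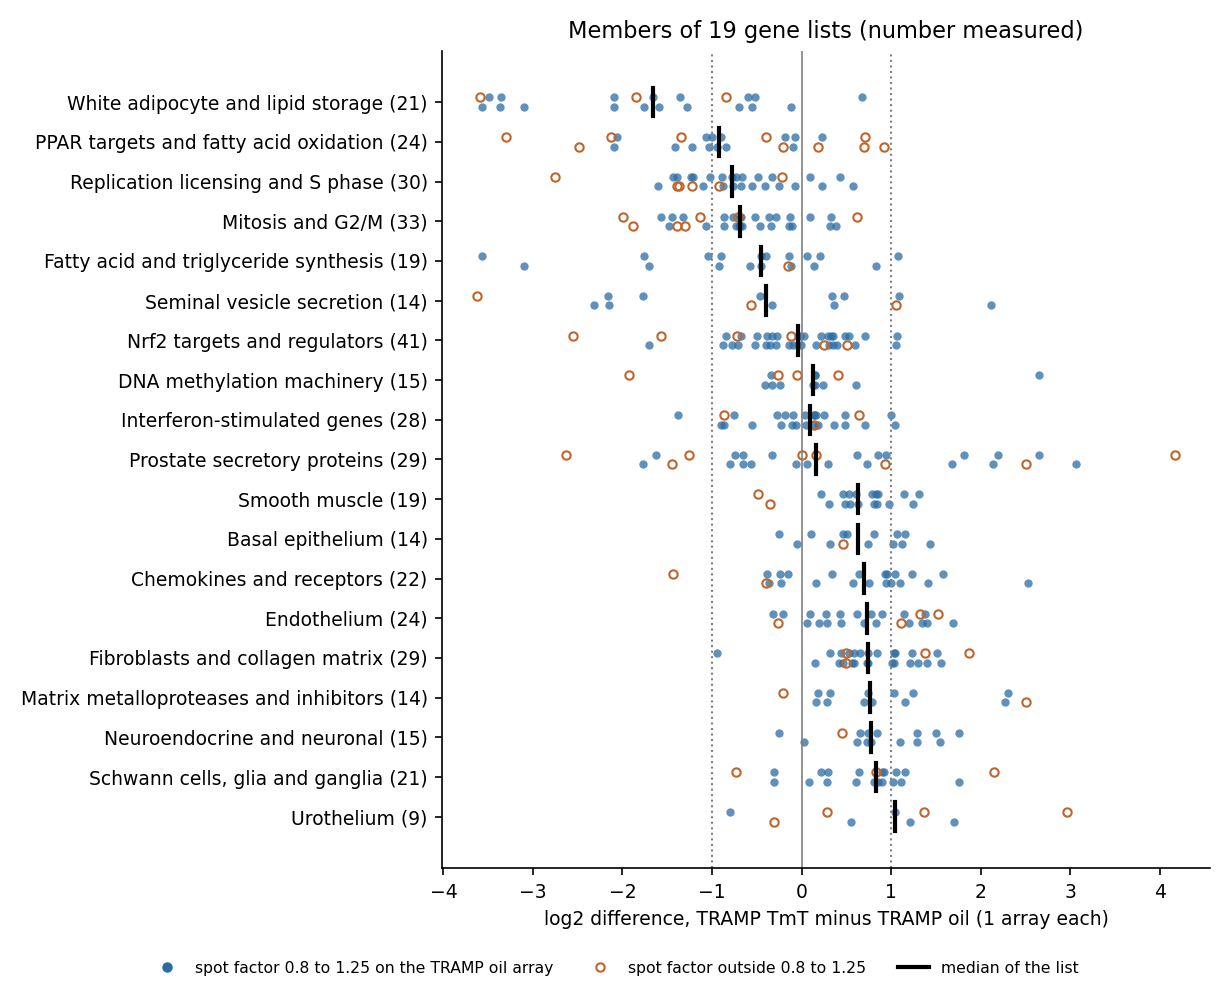
Each point is a gene, placed by its log2 difference between the TRAMP TmT array and the TRAMP oil array, for 19 gene lists with the number measured in brackets. Filled points had a spot factor of 0.8 to 1.25 on the TRAMP oil array, open points one outside it, black bars are list medians and dotted lines mark 2-fold. The adipocyte list lies furthest left, with a median of -1.66, and the urothelium list furthest right, with 1.04.

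Genes of fat storage were the group with the lowest median. Of 21 measured members of the white adipocyte list, 14 were called lower after TmT and 0 called higher, with a median of -1.66 against 0.10 over all genes. In the even zone the count was 12 of 18 and the median -1.63. All other probes of the 9 members that had them also lay below 0. The summed signal of the list, in units of each array's 75th percentile, was 120 (C57BL/6 oil), 89.2 (C57BL/6 TmT), 444 (TRAMP oil) and 97.2 (TRAMP TmT). The high value was thus that of TRAMP after oil, and the level after TmT was close to that of both C57BL/6 arrays. The TRAMP oil array was the highest of the 4 arrays in 20 of the 21 members.

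Levels are given below in the order C57BL/6 oil, C57BL/6 TmT, TRAMP oil and TRAMP TmT. Adipoq (probe on chromosome 16, 23157576 to 23157635, mm9) encodes adiponectin, a hormone secreted by fat cells. It stood at 0.02, -0.59, 2.29 and -1.20, a difference of -3.49 ± 0.21 in TRAMP, or 11.3-fold lower. It was high after oil in TRAMP and lowest of the 4 on the TRAMP TmT array. Fabp4 (chromosome 3, 10204533 to 10205262) encodes the fatty acid binding protein of adipocytes and macrophages. Its levels were 5.17, 4.02, 7.59 and 4.00, a difference of -3.59 ± 0.20 at a spot factor of 0.626, and its second probe gave -1.61. Scd1, the desaturase that makes monounsaturated fatty acids, stood at 4.09, 3.34, 6.42 and 2.85, a difference of -3.57 ± 0.20. Cidec, a lipid droplet protein, stood at 0.31, 1.01, 3.81 and 0.44, a difference of -3.37 ± 0.20. In both of these genes the TRAMP oil array lay above the other 3.

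Apart from Slc2a4, the further members were also highest on the TRAMP oil array. Cidea, a droplet protein of brown and beige fat, differed by -3.36 ± 0.22, and Thrsp, a lipogenic nuclear protein, by -3.10 ± 0.23. Lpl, the lipase that frees fatty acids from lipoproteins, had 2 probes, at -2.10 ± 0.20 and -2.55. Plin1, the coat protein of the adipocyte lipid droplet, differed by -2.09 ± 0.21, from 1.08 to -1.01. Dgat2, which forms triglycerides, was at -1.76 ± 0.21, Gpd1 at -1.66 ± 0.20 and Cfd (adipsin) at -1.60 ± 0.20. The adipogenic factors were closer to 0, with Pparg at -0.69 ± 0.07 and Cebpa at -0.55 ± 0.20. Slc2a4, the insulin-responsive glucose transporter that muscle also expresses, was the 1 member above 0, at 0.68 ± 0.06.

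Among genes measured only after oil, 5 had the largest bounds. Ucp1, the uncoupling protein of brown fat, was at a level of 1.58 on the TRAMP oil array and not well above background on the TRAMP TmT array, which makes it at least 34.4-fold lower. Gys2, a glycogen synthase, was at least 20.7-fold lower, Cyp2e1, a cytochrome P450, at least 14.4-fold, Elovl3, a fatty acid elongase of brown fat, at least 10.1-fold, and Retn (resistin) at least 9.86-fold. All 5 had spot factors between 1.02 and 1.20. Ucp1 was well above background on both C57BL/6 arrays, at -2.60 and -3.21, while Elovl3 was not on either. Slc36a2, an amino acid transporter of the adipocyte surface (chromosome 11, 54972134 to 54972193), had the largest difference downwards among named genes, at -3.85 ± 0.25, with levels of -2.02, -2.65, 1.25 and -2.60. In the brown fat list, Cidea and Gk were the 2 of 8 measured members called lower, while Ppargc1a stood at 0.19 ± 0.20, Prdm16 at 0.41 ± 0.26 and Cox7a1 at 0.10 ± 0.20. The list median was 0.14, and 4 further members, Ucp1 and Elovl3 among them, were above background on the oil array only.

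PPARs are nuclear receptors that sense fatty acids and, in fasting, turn on the genes that burn them. Of 24 measured PPAR targets and oxidation genes, 10 were called lower and 0 called higher, against 4.86% and 8.67% of all genes. Their median was -0.92. In the even zone 6 of 14 were lower and the median was -0.97. These genes did not share the adipocyte order of arrays. The TRAMP oil array was the highest of the 4 in 10 of 24, and the TRAMP TmT array the lowest of the 4 in 16 of 24.

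Pdk4, the fasting-induced kinase that spares glucose, stood at 2.86, 3.43, 2.97 and 0.91, a difference of -2.06 ± 0.20. The first 3 arrays lay close together and the TRAMP TmT array lay below them. Cpt1a, which carries fatty acids into mitochondria, stood at 3.61, 4.35, 3.68 and 2.68, just short of 2-fold at -0.996 ± 0.07, with its second probe at -0.57. Cd36, a fatty acid transporter, had 2 probes at -2.10 ± 0.20 and -2.16. The oxidation enzymes Acadl, Hadhb and Acadm were at -1.41 ± 0.20, -1.22 ± 0.20 and -1.06 ± 0.20. Ppara, the receptor itself, stood at -2.24, -1.26, -0.96 and -1.99, a difference of -1.03 ± 0.08. In C57BL/6 the median of these genes was 0.10, with Pdk4 at 0.57, Cpt1a at 0.73 and Ppara at 0.97, opposite in sign to TRAMP. Angptl4, an inhibitor of Lpl, was at -3.30 ± 0.18, but with a spot factor of 0.324, and Plin2 and Acot1 were at -2.49 and -2.13 with factors of 0.685 and 0.689. Targets that did not reach 2-fold included Cpt2 at -0.08 ± 0.20 and Acadvl at 0.92 ± 0.20 (factor 0.733). Ucp2 was at 0.23 ± 0.20 on its brightest probe and -0.97 on the other.

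In the synthesis of fatty acids and triglycerides, the median of 19 measured genes was -0.45. Of these, 5 were called lower and 1 higher, against 4.86% and 8.67% of all genes. Fasn, the fatty acid synthase, differed by -1.05 ± 0.20 and by -2.22 on its second probe, and Me1, which supplies NADPH, by -1.70 ± 0.21 and -2.66. Scd1, Thrsp and Dgat2, given above, were the others. The carboxylase Acaca was at 0.21 ± 0.21 on its brightest probe and between -1.62 and -0.98 on the others, so its direction depended on the probe. Acly was at 0.14 ± 0.20, the master regulator Srebf1 at 0.83 ± 0.20 and the desaturase Fads2 at 1.08 ± 0.20. Cholesterol synthesis had a median of -0.06 over 21 genes, with Dhcr7, an enzyme of its last steps, at 1.60 ± 0.19 (spot factor 0.525, second probe 0.39).

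**Figure D3:**
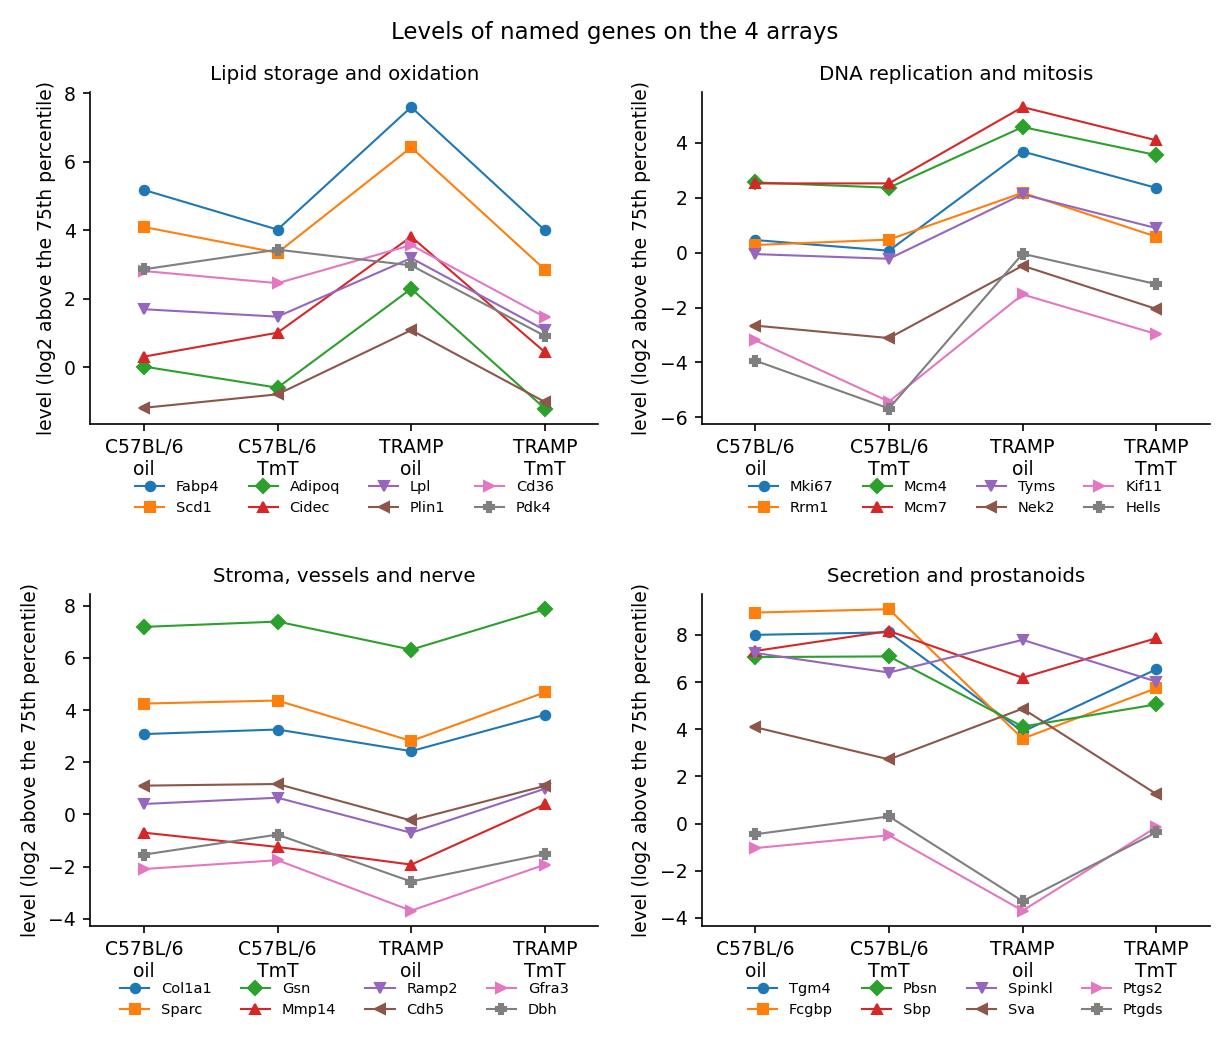
Levels (log2 above each array's 75th percentile) of 32 named genes on the C57BL/6 oil, C57BL/6 TmT, TRAMP oil and TRAMP TmT arrays, 1 array each, with 8 genes per panel and lines joining the points of a gene. Fabp4, Scd1, Adipoq and Cidec peak on the TRAMP oil array, Mki67 and the other cell cycle genes stay above C57BL/6 after TmT, and Ptgs2 and Ptgds dip on the TRAMP oil array.

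Genes of the cell cycle were in part lower after TmT. Of 63 measured members of the replication and mitosis lists, 21 were called lower, against 4.86% of all genes, and 0 called higher, with a median of -0.71. In the even zone 12 of 50 were lower and the median was -0.68. The TRAMP oil array was the highest of the 4 in 54 of the 63, and the TRAMP TmT array was still above both C57BL/6 arrays in 57. Relative to the mean of both C57BL/6 arrays the median level was 2.35 higher in TRAMP after oil and 1.57 higher after TmT.

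Promoters of some of these genes are shown because dividing cells switch such genes through short motifs near the start site. A CHR element (TTTGAA) and a CCAAT box (CCAAT) are typical of mitotic genes, and an E2F site (searched as TTTCGCGC, TTTGGCGC or TTTCCCGC) of replication genes. The 250 bases before the start are printed 5′ to 3′ on the gene's strand, from RefSeq on GRCm38.p6, with matches on either strand in capitals.

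Kif11 (chr19:37376132-37376381, plus strand): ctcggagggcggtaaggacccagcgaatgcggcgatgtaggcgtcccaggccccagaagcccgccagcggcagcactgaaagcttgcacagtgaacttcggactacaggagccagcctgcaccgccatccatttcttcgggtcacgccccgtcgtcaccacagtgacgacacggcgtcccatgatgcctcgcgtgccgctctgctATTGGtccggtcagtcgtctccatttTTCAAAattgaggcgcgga
Mki67 (chr7:135716380-135716629, minus strand): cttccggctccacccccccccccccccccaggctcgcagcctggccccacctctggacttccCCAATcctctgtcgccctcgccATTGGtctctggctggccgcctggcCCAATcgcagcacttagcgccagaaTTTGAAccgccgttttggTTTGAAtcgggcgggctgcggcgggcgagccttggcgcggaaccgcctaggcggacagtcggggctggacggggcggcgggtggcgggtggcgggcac
Rrm1 (chr7:102441445-102441694, plus strand): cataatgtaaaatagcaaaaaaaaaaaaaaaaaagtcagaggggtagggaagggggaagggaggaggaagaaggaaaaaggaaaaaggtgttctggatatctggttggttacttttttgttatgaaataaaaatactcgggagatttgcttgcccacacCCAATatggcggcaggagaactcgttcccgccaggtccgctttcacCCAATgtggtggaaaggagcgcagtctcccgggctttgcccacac
Hells (chr19:38930740-38930989, plus strand): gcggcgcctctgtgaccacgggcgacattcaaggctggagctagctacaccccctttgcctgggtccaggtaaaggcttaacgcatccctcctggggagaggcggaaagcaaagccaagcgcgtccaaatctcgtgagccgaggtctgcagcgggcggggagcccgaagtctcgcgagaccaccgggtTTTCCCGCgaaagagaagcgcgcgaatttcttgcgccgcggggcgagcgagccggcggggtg

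In Kif11 the CHR match ends 13 bases and the CCAAT match 40 bases before the start, and Mki67 holds 2 CHR and 3 CCAAT matches. Rrm1 holds 2 CCAAT matches, the nearer one 40 bases before the start, and Hells 1 E2F match 54 bases before it. These 4 are shown because they hold matches, and the promoters of Tk1 and Tyms, called lower as well, had no match to any of the 3 motifs. RefSeq promoters were found for 27 of the 33 measured mitosis genes and 25 of the 30 replication genes, with 29 promoters in each list. A CHR match lay in 34.5% of the mitosis promoters, 6.90% of the replication promoters and 16.0% of all 32851 promoters of this length. A CCAAT match lay in 75.9%, 65.5% and 33.8%, and an E2F match in 3.45%, 27.6% and 1.53%. Among the promoters of mitosis genes called lower, 54.5% of 11 held a CHR match. These matches are descriptions of the sequence and not binding sites found in these samples.

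Among replication genes, 11 of 30 were called lower, with a median of -0.78. Rrm1, the large subunit of ribonucleotide reductase, stood at 0.28, 0.48, 2.18 and 0.58, a difference of -1.60 ± 0.20. The TRAMP TmT array lay close to both C57BL/6 arrays. Rrm2, the small subunit, stood at -0.42, -2.72, 1.71 and -1.05, a difference of -2.76 ± 0.21 at a spot factor of 0.655. Thymidine kinase, Tk1, differed by -1.39 ± 0.21 and thymidylate synthase, Tyms, by -1.23 ± 0.20, with its other probes between -0.64 and -0.10. Of the replicative helicase, Mcm6, Mcm7 and Mcm4 were at -1.23 ± 0.20, -1.21 ± 0.20 and -1.02 ± 0.20. Its other subunits were nearer 0, with Mcm5 at -0.68 ± 0.20, Mcm2 at -0.55 ± 0.20 and Mcm3 at 0.10 ± 0.20, its second probe at -0.11. Mcm6, with a spot factor of 0.759, had levels of 7.37 and 6.14 in TRAMP after oil and TmT, against 3.81 and 4.01 in C57BL/6. The clamp gene Pcna differed by -0.88 ± 0.07 and the remodeller Hells by -1.11 ± 0.21. Lig1 and Orc1 lay above 0, at 0.23 ± 0.20 and 0.57 ± 0.30.

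Among mitosis genes, 10 of 33 were called lower, with a median of -0.69. Mki67 (chromosome 7, 142881591 to 142881650, mm9), the Ki-67 antigen of cycling cells, stood at 0.46, 0.07, 3.68 and 2.36, a difference of -1.33 ± 0.20, with its second probe at -0.17. Both TRAMP arrays lay above both C57BL/6 arrays. The kinesins Kif20a, Kif11 and Kif23 differed by -1.48 ± 0.21, -1.44 ± 0.28 and -1.39 ± 0.22 (second probes -1.40, -0.50 and -1.22, and a factor of 0.726 for Kif23), and the centrosomal kinase Nek2 by -1.57 ± 0.23. Cdk1, the kinase that starts mitosis, was at -1.99 ± 0.29 with a spot factor of 0.752, and Anln at -1.89 ± 0.21 with one of 0.434 and a second probe at -0.13. Other central genes were nearer 0. Ccnb1 (cyclin B1) stood at 0.10 ± 0.20, Plk1 at 0.33 ± 0.20, Birc5 at -0.14 ± 0.20, and Ccna2 (cyclin A2) at 0.62 ± 0.20 with a factor of 0.538. The list was therefore not uniformly lower: 28 of 33 members lay below 0 and 5 above it.

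Regulators of the cycle had medians nearer 0. Of 20 measured Rb and E2F family genes, 2 were called lower, the pocket protein Rbl1 at -1.16 ± 0.23 and cyclin E2, Ccne2, at -1.13 ± 0.21 (spot factor 0.585, second probe -1.55), and the median was -0.07. Rb1 was at 0.30 ± 0.07 on its brightest probe and -0.79 on the other. Among 22 p53 targets and CDK inhibitors, Bbc3 (PUMA), which promotes apoptosis, was the 1 gene past 2-fold, at 1.44 ± 0.20, and Trp53 was at 0.22 ± 0.20. Of 20 Bcl2 family and apoptosis genes, 3 were called lower and 5 called higher, against 4.86% and 8.67% of all genes. Casp9, the initiator of the mitochondrial route, was highest of these at 2.89, with a spot factor of 0.63. The pro-apoptotic Pmaip1 (NOXA) was at least 10.7-fold higher as a bound, with a spot factor of 0.749.

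Genes of the stroma were in part higher after TmT. Of 29 measured fibroblast and matrix genes, 12 were called higher, against 8.67% of all genes, and 0 called lower, 28 lay above 0, and the median was 0.74. With the arrays centred on the median 8 were called higher and 1 lower. In the even zone 10 of 25 were higher, with the same median of 0.74. The summed signal was 364 and 359 in C57BL/6 after oil and TmT, and 192 and 450 in TRAMP. The TRAMP oil array was the lowest of the 4 in 20 members and the TRAMP TmT array the highest in 18.

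Col1a1 (chromosome 11, 94813075 to 94813134), a chain of type I collagen, stood at 3.08, 3.26, 2.43 and 3.82, a difference of 1.40 ± 0.06, with its other probes between 0.17 and 1.62. C57BL/6 lay between the low TRAMP oil array and the high TRAMP TmT array. Gsn (gelsolin), which cuts actin filaments, stood at 7.19, 7.39, 6.32 and 7.87, a difference of 1.55 ± 0.20. Col5a1 differed by 1.51 ± 0.20, the microfibril gene Mfap4 by 1.302 ± 0.20, and the platelet-derived growth factor receptors Pdgfrb and Pdgfra by 1.24 ± 0.20 and 1.21 ± 0.07. Sparc was at 1.86 ± 0.20, but its spot factor was 0.514 and its second probe was at -0.34. The proteoglycan Dcn was at 1.37 ± 0.20 with a factor of 0.549, and at 0.96 on its second probe. Mfap5 was the 1 member below 0, at -0.94 ± 0.28.

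In the lists of smooth muscle, vessels and nerve most members lay above 0 and fewer were called higher. In the smooth muscle list 17 of 19 members lay above 0 with a median of 0.63. Of these, 3 were called higher (0 in the signal before detrending, and 0 with normexp and quantile normalization), actin Acta2 at 1.31 ± 0.20, calponin Cnn1 at 1.25 ± 0.20 and tropomyosin Tpm1 at 1.15 ± 0.20. Other probes of Acta2 lay between -0.21 and 0.65, and that of Tpm1 at -0.27. Of 24 endothelial genes, 9 were called higher, against 8.67% of all genes, and 21 lay above 0, with a median of 0.73. Ramp2, a receptor partner of vascular cells, stood at 0.40, 0.64, -0.70 and 0.99, a difference of 1.69 ± 0.21. The VEGF receptor Flt1 differed by 1.40 ± 0.21 with its second probe at 0.93, and the angiopoietin-family receptor Tie1 by 1.38 ± 0.22. Pecam1 was at 0.43 ± 0.07 and Kdr, the main VEGF receptor, at -0.32 ± 0.07, so some defining genes of the vessel wall were near 0 or below it.

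Of 21 Schwann cell and ganglion genes, 6 were called higher, against 8.67% of all genes, with a median of 0.83. With the arrays centred on the median 4 were called higher, and with normexp and quantile normalization 0. Gfra3, a receptor of the GDNF family, differed by 1.76 ± 0.29, and Dbh, which makes noradrenaline, by 1.05 ± 0.23. Of 15 neuroendocrine and neuronal genes, 6 were called higher, against 8.67% of all genes, with a median of 0.77. Their levels on the TRAMP TmT array were between the TRAMP oil array and C57BL/6 in 9 of the 15, and the TRAMP oil array was the lowest of the 4 in 14. Chga (chromogranin A) stood at -0.78, -0.53, -2.79 and -1.51, a difference of 1.29 ± 0.24. Snap25 differed by 1.76 ± 0.21 on its brightest probe, with others from -0.78 to 1.31, and Scg5 by 1.55 ± 0.28. Both TRAMP arrays were below C57BL/6 for Chga.

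Of 14 basal genes, 5 were called higher, against 8.67% of all genes, and 12 lay above 0, with a median of 0.63. The basal keratin Krt5 stood at 2.98, 3.02, 1.09 and 2.53, a difference of 1.43 ± 0.20, and Krt15 differed by 1.12 ± 0.20. The basal master factor Trp63 was at 0.46 ± 0.20 (factor 0.706) and at 1.49 on its second probe. Of 9 urothelial genes, 5 were called higher, against 8.67% of all genes, with a median of 1.04. Psca, an antigen of the bladder and prostate surface, stood at 3.62, 2.36, 0.74 and 3.70, a difference of 2.96 ± 0.20 at a spot factor of 0.607. Gata3 differed by 1.70 ± 0.20 and Krt7 by 1.21 ± 0.20, with its second probe at 0.44. The plaque proteins that define urothelium were mixed, with Upk2 at 1.04 ± 0.23, Upk1b at -0.80 ± 0.21 and Upk3a at -0.31 ± 0.23 (factor 0.647). Upk1a was at 0.28 ± 0.16 with a factor of 0.388 and at -0.46 on its second probe.

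Luminal genes had a median of -0.11 over 24 measured members. Of these, 3 were called lower and 3 higher, against 4.86% and 8.67% of all genes. The splicing regulator Esrp1 differed by -1.76 ± 0.23, with its second probe at -0.68, and Hoxb13, a prostate homeobox factor, by -1.01 ± 0.21. The adhesion gene Epcam was at -0.77 ± 0.20. Higher were Gata3, given above, the tight junction gene Cldn4 at 1.53 ± 0.21, and the keratin Krt8 at 1.19 ± 0.20 with a spot factor of 0.447 and a second probe at 0.09.

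Secretory products of the prostate went in both directions, 8 of 29 called higher and 5 called lower, with a median of 0.16. Tgm4 (chromosome 9, 122976612 to 122976671), the prostate transglutaminase that clots semen, stood at 8.01, 8.11, 3.90 and 6.54, a difference of 2.65 ± 0.20. Fcgbp, a mucin-like binding protein, stood at 8.95, 9.09, 3.60 and 5.74, a difference of 2.14 ± 0.20, with its second probe at 1.65. In both genes C57BL/6 was high on both arrays, the TRAMP oil array was lowest and the TRAMP TmT array lay between. Pbsn followed the same order with a difference of 0.94 ± 0.20, and Sbp differed by 1.68 ± 0.20 and Gsdma by 1.81 ± 0.21, with its second probe at 2.23. Mmp7, a protease secreted by prostate epithelium, was at 2.51 ± 0.20 with a spot factor of 0.553. Renin probes were higher too. Ren1 stood at 1.90, 4.97, -3.15 and 1.01, a difference of 4.17 ± 0.28 at a factor of 0.623, with a second probe at 2.34, and the Ren2 probe differed by 3.30 ± 0.23. The renin genes are near-identical copies, so signals of these probes cannot be assigned to either with certainty.

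The lower secretory genes had another order of arrays. Spinkl, a secreted inhibitor-like protein, stood at 7.24, 6.41, 7.79 and 6.02, a difference of -1.77 ± 0.20, and Ceacam10 at 7.38, 7.25, 7.60 and 5.97, a difference of -1.62 ± 0.20. The TRAMP oil array was the highest in both and the TRAMP TmT array the lowest. Apof differed by -1.45 ± 0.20 with a spot factor of 0.787 and Crabp1 by -1.26 ± 0.21 with one of 0.629.

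Of 14 seminal vesicle products 5 were called lower and 3 higher, against 4.86% and 8.67% of all genes, with a median of -0.40. With the arrays centred on the median, or after quantile normalization or loess, 5 were lower and 1 higher. Sva stood at 4.09, 2.72, 4.88 and 1.25, a difference of -3.62 ± 0.20 at a spot factor of 0.773, Sval2 differed by -2.32 ± 0.30, Svs1 by -2.17 ± 0.20 and Svs3a by -2.15 ± 0.20. The most abundant products, Svs5 and Svs4, were at 0.47 ± 0.20 and 0.34 ± 0.20, and Svs2 at 1.09 ± 0.20. Wfdc3 was highest at 2.12 ± 0.20. The lower genes also lay below 0 in C57BL/6, with Sva at -1.37, Sval2 at -1.79, Svs1 at -0.93 and Svs3a at -0.40. The amount of seminal vesicle in a sample was not measured, and its part in these values was not tested.

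Genes of the vas deferens and epididymis held the largest difference upwards among named genes. Akr1b7 (chromosome 6, 34372905 to 34372964), an aldose reductase-like protein first known from the mouse vas deferens, stood at 4.78, 6.05, 1.03 and 5.23, a difference of 4.196 ± 0.20, or 18.3-fold, at a spot factor of 0.597. Crisp1, a sperm-coating protein of the epididymis, stood at 2.20, 2.84, -0.28 and 2.93, a difference of 3.21 ± 0.20. In both genes the TRAMP oil array stood alone, low against the other 3. Of 22 genes of this list, 9 were measured, 4 of them called higher, and 12 were above background on neither TRAMP array, Crisp4, Lcn5 and Adam7 among them.

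Of 22 measured chemokines and receptors, 6 were called higher and 1 called lower, against 8.67% and 4.86% of all genes. Their median was 0.69. Cxcl15 differed by 2.53 ± 0.32, the T cell receptor for interferon-induced chemokines, Cxcr3, by 1.58 ± 0.21, the eosinophil attractant Ccl11 by 1.41 ± 0.21, and Cxcl14 by 1.23 ± 0.20. Ackr3, a scavenging receptor, was the 1 lower gene at -1.43 ± 0.31, with a spot factor of 0.745. Of 16 B cell and plasma cell genes, 4 were called higher, against 8.67% of all genes, with a median of 0.75. Igha, the heavy chain of IgA, stood at 0.65, 0.93, 4.05 and 5.61, a difference of 1.56 ± 0.20, with another probe at 0.61, and the B cell coactivator Pou2af1 differed by 1.92 ± 0.21. Both TRAMP arrays were above C57BL/6 for Igha. Cr2 was at 2.43 ± 0.26 with a spot factor of 0.59. The measured members with a negative difference were Fkbp11, Prdm1, Xbp1 and Cd22. Fkbp11 was at -0.66 ± 0.21 (second probe 0.66) and Prdm1 at -0.46 ± 0.35 (factor 0.730). Xbp1 was at -0.31 ± 0.20 and Cd22 at -0.23 ± 0.32. The defining genes Cd79a, Ms4a1 and Pax5 were not measured on both arrays.

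T and NK cell genes had a median of 0.15 over 16 measured, macrophage and dendritic cell genes 0.21 over 21, MHC genes 0.07 over 19 and NF-kB and cytokine genes 0.12 over 22. Of 9 neutrophil and mast cell genes 3 were called higher, Cpa3, Ltf and Lcn2, against 8.67% of all genes, with a median of 0.83. The mast cell protease Cpa3 stood at -0.24, -1.64, -3.23 and -2.15, highest in C57BL/6 after oil. Kit and Hdc of the same list lay below 0, at -0.51 ± 0.07 and -0.43 ± 0.31. Neutrophil genes S100a8, S100a9 and Cxcr2 were not measured on both arrays. The 28 interferon-stimulated genes had a median of 0.09. Within them, Rsad2 (viperin) stood at 0.58, 1.45, 2.46 and 1.08, a difference of -1.38 ± 0.20, with other probes from -2.02 to -0.28, and Zbp1, a sensor of foreign nucleic acid, differed by 1.04 ± 0.21.

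Of 17 measured genes of prostaglandin and lipoxygenase synthesis, 5 were called higher and 0 lower, with a median of 0.50, against 8.67% of all genes called higher. With the arrays centred on the median 3 were called higher, and with normexp and quantile normalization 0. Ptgs2 (chromosome 1, 151954744 to 151954803), the inducible cyclooxygenase COX-2, stood at -1.04, -0.50, -3.70 and -0.15, a difference of 3.54 ± 0.16, or 11.6-fold, at a spot factor of 1.05. It was low on the TRAMP oil array, and the other 3 lay closer together. Ptgs1, the constitutive enzyme, stood at 0.91, 0.93, -0.83 and 0.45, a difference of 1.28 ± 0.21 in the same order. Ptgds, which makes prostaglandin D, differed by 2.92 ± 0.28 with a spot factor of 0.718, and Ptges, which makes prostaglandin E, by 1.04 ± 0.20. The phospholipase Pla2g4a, which frees arachidonic acid, was at 0.76 ± 0.20, and the lipoxygenase Alox5 and its activator Alox5ap at 0.53 ± 0.22 and 0.83 ± 0.21.

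Of 14 measured proteases of the matrix and their inhibitors 6 were called higher and 0 called lower, against 8.67% and 4.86% of all genes. Above 0 lay 13, and the median was 0.77. Mmp14, a membrane-bound collagenase, stood at -0.70, -1.24, -1.92 and 0.38, a difference of 2.31 ± 0.21. Plau (urokinase) stood at 3.96, 4.64, 2.87 and 5.14, a difference of 2.27 ± 0.20, with its second probe at 1.66. In both, the TRAMP oil array was the lowest and the TRAMP TmT array the highest. Mmp2 differed by 1.15 ± 0.21 and Plat, the tissue plasminogen activator, by 1.25 ± 0.21, while the inhibitors Timp1, Timp3 and Timp2 were at 0.19 ± 0.20, 0.28 ± 0.20 and 0.79 ± 0.20.

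Nrf2 is held by Keap1 until electrophiles free it to induce antioxidant enzymes, and the median of its genes was near 0. Of 41 measured targets and regulators, 3 were called lower and 2 called higher, against 4.86% and 8.67% of all genes. Their median was -0.04. Nfe2l2, which encodes Nrf2, stood at 1.78, 1.72, 1.77 and 1.27, a difference of -0.49 ± 0.20, with its second probe at -0.22, and Keap1 was at 0.35 ± 0.20. The glutamate-cysteine ligase gene Gclc was at 0.16 ± 0.20, and Gclm was above background on neither TRAMP array. Nqo1 (chromosome 8, 109912440 to 109912499), the quinone reductase, stood at 0.82, 1.23, 1.84 and -0.70, a difference of -2.55 ± 0.18. Its spot factor was 0.294 on the TRAMP oil array, and the difference was -0.85 in the signal before detrending. Hmox1 (heme oxygenase) was at -0.72 ± 0.20 with a factor of 0.469.

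The glutathione transferases Gstm1 and Gstm3 were the higher ones, at 1.07 ± 0.20 and 1.05 ± 0.20, and both were under 2-fold with the arrays centred on the median, at 0.97 and 0.95. Gstp1 was at 0.31 ± 0.20. Gstm1 had levels of 4.72, 4.89, 4.17 and 5.24, the TRAMP oil array being the lowest. Prdx6 was at -1.57 ± 0.20 with a factor of 0.628 and its other probes at 0.25 to 1.42, so its probes disagreed in sign. Me1, shared with fatty acid synthesis, was the other lower gene. Txnrd1, Cat and Prdx1 were at -0.77 ± 0.20, -0.85 ± 0.20 and -0.88 ± 0.20, and Sod1, Txn1 and Gpx1 at -0.01 ± 0.20, -0.04 ± 0.20 and -0.09 ± 0.20, with the second probe of Sod1 at 0.95. The metallothioneins Mt1 and Mt2, which bind zinc and copper, were at 1.25 ± 0.07 and 1.53 ± 0.20, both lowest on the TRAMP oil array.

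DNA methylation genes were as a group close to the median of all genes. Dnmt1, the maintenance methyltransferase, was at -0.41 ± 0.23, the de novo enzymes Dnmt3a at 0.15 ± 0.20 and Dnmt3b at -0.06 ± 0.25 (factor 0.782), and Uhrf1, which guides Dnmt1 to new strands, at -0.33 ± 0.20. Dnmt1 stood at -3.33, -3.37, -1.58 and -1.99, so both TRAMP arrays lay above both C57BL/6 arrays. Of 15 measured genes 1 was called lower and 1 called higher, against 4.86% and 8.67% of all genes. The lower one was Mbd3 at -1.93 ± 0.24 with a spot factor of 0.525. The higher one was Mbd1 at 2.65 ± 0.21, whose other probes were at -0.18 to -0.03. The demethylases Tet1, Tet2 and Tet3 were at 0.24 ± 0.22, 0.13 ± 0.20 and -0.34 ± 0.20, and second probes of Tet2 and Tet3 at -0.21 and 0.94, opposite in sign. Of 16 histone deacetylase genes, Hdac2 at -1.77 ± 0.18 and Sirt2 at -1.83 ± 0.16 were called lower, with spot factors of 0.340 and 0.347, and other probes of Sirt2 were at -0.11 to 0.09. In the even zone 0 of 10 were past 2-fold, and Hdac1 was at -0.52 ± 0.20.

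For carriers of vitamin E and lipids, 14 of 25 were measured, with a median of -0.01. Ttpa, the tocopherol transfer protein of liver, was above background on neither TRAMP array, nor were 7 others. Abca1, the cholesterol exporter that also moves tocopherol, stood at 2.83, 1.94, 3.19 and 1.82, a difference of -1.37 ± 0.20 at a spot factor of 0.705. The tocopherol-associated protein gene Sec14l2 was at 0.08 ± 0.20 and the receptor Scarb1 at 0.43 ± 0.21. Among 28 enzymes of xenobiotic metabolism 3 were lower and 3 higher, against 4.86% and 8.67% of all genes. Cyp2b10 was at -1.31 ± 0.20 and Fmo5 at 1.76 ± 0.25, with the other probes of Fmo5 at 1.16 to 1.24. Heat shock chaperones (0.02 over 20), the unfolded protein response (-0.01 over 26), ribosomal proteins (-0.06 over 36) and oxidative phosphorylation (-0.17 over 33) had medians near that of all genes. Hypoxia and glycolysis genes had a median of -0.2 over 25. Among them Pgk1 was lower at -1.23 ± 0.20, with its second probe at -0.76. Pkm was lower at -1.09 ± 0.20 with a spot factor of 0.420, and its other probes were at -0.06 to 0.12. The regulatory kinase Pfkfb3 went the other way at 2.87, with its other probes from 1.95 to 3.06, as did Slc2a1 at 1.06 ± 0.20.

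Ranking genes by their difference favours positions of both TRAMP arrays at the edges of the 4. Among the 15 named genes with the largest difference downwards, between -3.85 and -3.10, the TRAMP oil array was the highest in all 15. The TRAMP TmT array was the lowest in 13, and 9 had a spot factor below 0.8. Pira2, Insl6, Asap1, Brd8 and Ephx2 had factors between 0.288 and 0.327, and Dnase2b one of 0.718. Brd8 was at -3.23 ± 0.21, with its other probes at -0.70 to -0.58. Among the 15 with the largest difference upwards, between 2.93 and 4.196, the TRAMP oil array was the lowest of the 4 in 14 and the TRAMP TmT array the highest in 11, and 8 had a factor below 0.8. The exception was Tsix, an antisense transcript of the X inactivation locus, at -4.79, -4.94, -4.37 and -1.39, where the TRAMP TmT array alone was high. Besides genes given above, this group held Icosl at 4.15 ± 0.22 (factor 0.715), with its second probe at 0.02, and Rprm, a p53-induced arrest gene, at 3.81 ± 0.26 (factor 0.642), with its second probe at 3.03. Further members were Telo2 at 3.29 ± 0.24 (factor 0.640), the defensin Defb42 at 3.27 ± 0.20 and the potassium channel gene Kcnj16 at 3.08 ± 0.29. It also held Cyp2j13, Ltbr and Tmem30a, with factors of 1.35, 0.723 and 0.541, and the second probes of Cyp2j13 and Tmem30a lay at -0.70 and -0.36, opposite to the brightest. The largest bounds upwards among named genes, besides Pmaip1, were Ptk7 at least 20.3-fold, Fsip1 at least 16.5-fold, Serpina1f at least 14.0-fold and Col13a1 at least 10.5-fold, and all but Fsip1 had a factor outside 0.8 to 1.25.

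Different probes of a gene, hybridised on the same arrays, often differed in size, and many differed in sign. Of the 377 other probes of 277 genes called lower, 243 lay below 0 and 134 above it. By the same cutoff, 55 of these probes were themselves called lower and 15 higher. Of 495 other probes of 373 genes called higher, 316 lay above 0 and 179 below it. Here 72 probes were called higher and 19 lower. Among genes under 2-fold, 3599 of 6835 other probes lay below 0. For comparison, 418 of those 6835 probes were called lower and 448 higher. In the even zone 121 of 164 other probes of the lower genes lay below 0, and 160 of 217 of the higher genes lay above 0.

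Set beside the same treatment in C57BL/6, whose arrays are not shared with the TRAMP comparison, few genes were past 2-fold in both lines. Of 16875 genes measured on all 4 arrays, 2.56% were lower and 2.77% higher in C57BL/6, and 4.84% lower and 8.37% higher in TRAMP. Called lower in both were 48. This is 5.88% of those lower in TRAMP, against the 2.56%, and 11.1% of those lower in C57BL/6, against the 4.84%. A further 85 were called higher in both. This is 6.02% of those higher in TRAMP, against the 2.77%, and 18.2% of those higher in C57BL/6, against the 8.37%. In opposite directions, 38 of the 817 genes lower in TRAMP were higher in C57BL/6, and 53 of the 1413 higher in TRAMP were lower there. The SD of the differences was 0.699 in TRAMP and 0.502 in C57BL/6. Across these genes, which are not independent replicates, Pearson's r between both differences was 0.12.

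By list, the C57BL/6 medians were -0.24 for adipocyte genes against -1.66 in TRAMP, 0.10 against -0.92 for PPAR targets, -0.17 against -0.78 for replication and -0.42 against -0.69 for mitosis. For fibroblast genes they were -0.14 against 0.74, for endothelium -0.32 against 0.73, for Schwann cells 0.11 against 0.83 and for neuroendocrine genes 0.32 against 0.77. The renin probes were higher in both lines, with the Ren1 probe at 3.07 and the Ren2 probe at 3.30 in C57BL/6. These are values of probes and do not show that 2 renin genes were higher. With 1 array per group, the difference between the lines was not tested.

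**Figure D4:**
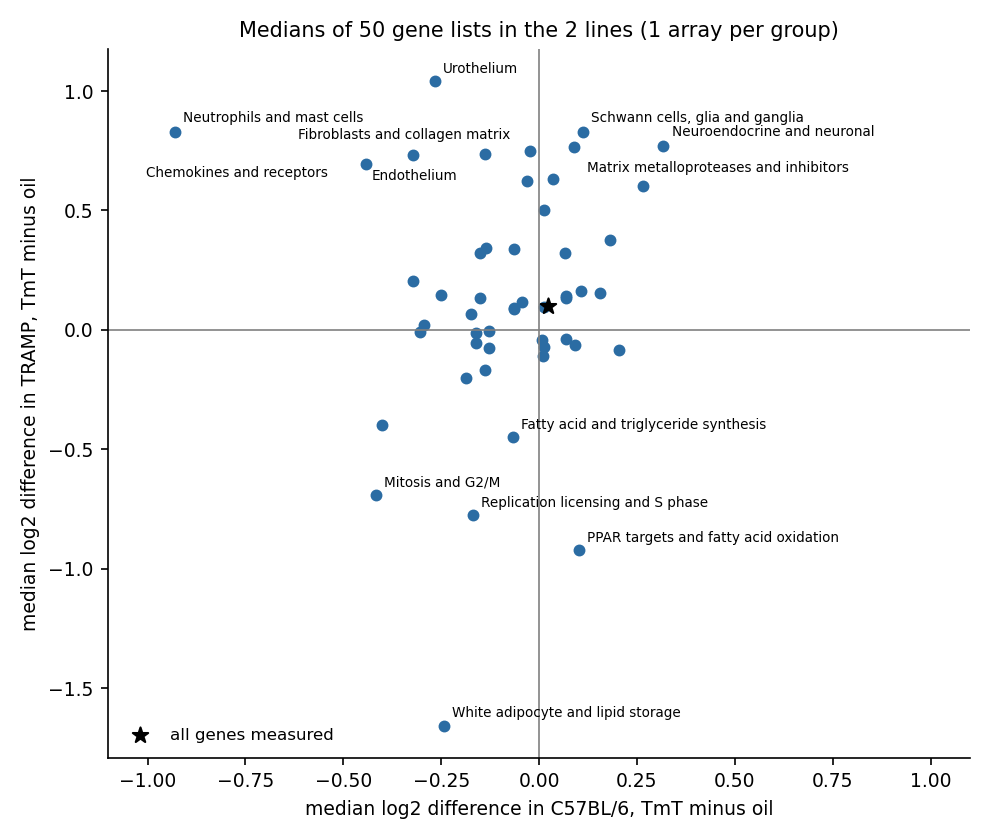
Median log2 difference, TmT minus oil, of 50 gene lists in C57BL/6 (x axis) and in TRAMP (y axis), from 1 array per group, with the star for all genes measured. The adipocyte list lies lowest in TRAMP at -1.66 and at -0.24 in C57BL/6, and list medians spread more widely in TRAMP than in C57BL/6.

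The size of these values moved with the processing. With normexp background correction and quantile normalization in place of the scanner software's correction and the 75th percentile, 32 genes were called lower and 161 higher, against 954 and 1359 with quantile normalization alone, and Ptgs2 was at 0.75. The adipocyte median was -0.93 with 9 of 21 called lower, that of PPAR targets -0.27 with 2 of 24, that of the cell cycle lists -0.25 with 0 of 63 called, and that of fibroblast genes 0.29 with 3 of 29 called higher. These 4 medians kept their sign.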

How the data were processed

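RNA of mouse prostate, labelled with Cy3, was measured on Agilent arrays of 1 colour, 1 array per group. Per the file headers, Feature Extraction 10.2.1.3 made the processed signal, a linear intensity that was background-subtracted and, on 3 of 4 arrays, divided by a fitted spatial factor, with probe positions on mm9. The fitted factor is a ratio near 1, per the file headers. The deposited value table, whose scale, centring and direction are otherwise unstated, equals that intensity for all 45018 features of each array, so it is linear and uncentred; its medians were 30.2, 21.3, 25.3 and 13.8 (C57BL/6 oil, C57BL/6 TmT, TRAMP oil, TRAMP TmT).

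Control spots and spots marked as outliers (131, 207, 348 and 178) were left out, and no spot was saturated. Spots of a probe were averaged as log2 minus log2 of the array's 75th percentile, and a gene was its brightest probe over the 4 arrays. RefSeq accessions or a unique synonym named 26768 of 41174 probes. The exon or UTR under a probe was not looked up. Bounds set the brighter level against the higher of the dim level and the lowest level well above background on that array. Members and gene lists were chosen with earlier results of these data known. Named genes were the 15 largest differences each way, up to 4 members per list in the direction of its median and 2 in the other (all past 2-fold), 5 bounds each way and fixed index genes; other members are given for their role, chosen after their values were seen. Normexp used limma 3.58.1 in R 4.3.3 with an offset of 50, followed by quantile normalization. Scripts ran in Python 3.11.15 with pandas 2.3.3 and were tested on simulated data. The median SD between the 10 spots of 176 probes was 0.117 to 0.193; the number of arrays limits the precision. A few genes are not reported here.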

Additional observations from a re-analysis of the deposited data

Results flagged for a closer look

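The difference between TmT and oil had opposite signs in TRAMP and C57BL/6 for many lists and genes. Given here are the 4 gene lists whose medians exceeded the spot spread of 0.242 in both lines, and the 3 genes, of those with the largest differences in TRAMP, that were past 2-fold in both. That spread comes from repeated spots on the TRAMP arrays and served as a cutoff for both lines. It does not measure the spread of a list median, or that between mice or arrays. Each line had 1 array per treatment, so these differences were not tested.

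The median of urothelial genes was 1.04 in TRAMP and -0.27 in C57BL/6, and that of endothelial genes 0.73 and -0.32. Neutrophil and mast cell genes had medians of 0.83 and -0.93, and chemokines and receptors 0.69 and -0.44. Brd8, a bromodomain gene, was at -3.23 in TRAMP and 1.23 in C57BL/6, and Ephx2, the soluble epoxide hydrolase, at -3.18 and 2.03, both with spot factors of 0.29 to 0.30 on the TRAMP oil array. Psca was at 2.96 and -1.27.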

How the results depend on the processing

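Besides the main setting, 13 alternatives were run, 2 of them (the spatial factor applied to all arrays, and the even zone) chosen after seeing the data. The counts of genes at least 2-fold lower and higher, 847 and 1511 in the main setting, were 32 and 161 with normexp and quantile normalization together, 1839 and 4430 with no background filter, 361 and 513 at levels at or above the 75th percentile, 479 and 985 in the even zone and 202 and 392 at 3-fold. They stayed within 1.5 times with the other 8, from 706 to 1121 lower and 1128 to 1539 higher. The share of higher genes was 83.4% in the first of these.

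Single genes were followed through the alternatives for a limited set only, not for all genes past 2-fold. Within that set, the called values that turned sign were Pkm (-1.09, spot factor 0.420), at 0.11 with normexp and quantile normalization and 0.10 before detrending, Chaf1b (-1.39, spot factor 0.340), at 0.065 and 0.096, and Prdx6 (-1.57) at 0.14 as the mean over its probes. The median of seminal vesicle genes was 0.007 at levels at or above the 75th percentile, against -0.40. Of 611 list medians under an alternative, 47 in 19 lists had the other sign; apart from seminal vesicle, the medians of these lists were within 0.206 of 0 in the main setting. Of the gene values of that limited set, 1762 moved by less than the spot spread of a difference (0.242), and 384 moved by more. Of the list medians 561 and 49 did so. The cause of these moves was not tested. No paired analysis was possible because each group has 1 array. Leaving out a replicate was not possible for the same reason.

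Precision is limited by 1 array per group, by the lower signal of the TRAMP TmT array, and by the spatial factor of the TRAMP oil array, which was below 0.8 for 43.3% of the lower genes against 14.8% of all.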
